A study of Mus musculus with 14 samples.

Results

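H3K27me3, trimethylated lysine 27 of histone H3, was profiled by chromatin immunoprecipitation and sequencing (ChIP-seq) at 10 Sox genes that lie outside the glial group, out of 20 genes of the family in the annotation (Sry included). The members were chosen by name and role: the neural genes Sox1, Sox2, Sox11, Sox14 and Sox21, the SoxD genes Sox5 and Sox6, and the SoxF genes Sox7, Sox17 and Sox18, which act in endoderm and blood vessels. Their peaks were all listed peaks that overlap the gene body or 5 kb on either side, 37 of the 23668 peaks in the deposited table. The cells were wild-type primary hippocampal neurons, which the study's methods describe as cultured from mixed-sex litters of late embryonic CD1 mice. Both groups received gapmers in lipid nanoparticles. In the control group the gapmer had no target, and in the knockdown group it was directed against NeuID, a long noncoding RNA of neurons. Gapmers are antisense oligomers that lead to cleavage of the RNA they pair with. Each condition had 6 ChIP libraries and 1 input library in the labels. Whether the libraries came from separate cultures was not stated.

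Sox proteins bind the minor groove of DNA through an HMG box and bend it. The SoxB1 proteins Sox1 and Sox2 keep neural progenitors undifferentiated, the SoxB2 proteins Sox14 and Sox21 counteract them, and the SoxC protein Sox11 acts in newborn neurons. H3K27me3 is laid down by Polycomb repressive complex 2 and marks genes that are kept silent, often developmental regulators with CpG-rich promoters.

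For each peak the authors deposited log2 means of normalized reads, for the control group, for the knockdown group and over all libraries. A peak's strength below is this overall mean, and a difference is the knockdown minus the control log2 mean, so that 1 is a doubling. Reads are normalized reads per library. The overall mean gave the control a weight of 0.545, that of 6 control to 5 knockdown libraries, so the means hold 11 of the 12 ChIP libraries. A figure legend of the study gives 5 per group for this ChIP-seq, which does not match that weight. Values per library were not analysed here. No value below therefore has a standard deviation, a number of replicates or a test, and no difference can be compared with the spread between replicates. As a yardstick, the spread of differences over all listed peaks of similar strength is given; this is a spread among peaks, not a replicate error. Peaks of 1 gene share their chromatin and are not independent of each other. In bulk cultures, a change in the modification and a change in the mixture of cells cannot be told apart. In the same windows, peaks were listed at 5 of 10 neuron markers, 1 of 5 astrocyte, 4 of 5 oligodendrocyte, 2 of 5 microglia and 4 of 5 endothelial markers, and the neuron marker with the strongest peak was Slc17a7 at 6.01. Summed over these peaks, reads went from 457 in the control to 473 in the knockdown at neuron, from 2.59 to 8.89 at astrocyte, from 354 to 424 at oligodendrocyte, from 52.1 to 36.8 at microglia and from 151 to 148 at endothelial markers. The astrocyte value is a single peak, at Gfap. The oligodendrocyte sum rose although 11 of its 17 peaks were lower and 6 higher, with a median difference of -0.20. By more than 1, 3 of these 17 peaks were higher and 0 lower. Lower and higher peaks numbered 12 and 17 at neuron, 5 and 1 at microglia and 3 and 5 at endothelial markers. The part of these cell types in the results below was not tested.

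Sequences at Sox14, Sox2, Sox6 and Sox7 are shown first, with each CpG in capitals. Whether they bear on the pattern was not tested. Sox14 and Sox2 are neural genes with and without a called peak at the promoter, Sox6 has a narrow peak at its promoter, and Sox7 has the strong peak that was higher in the knockdown. The promoter windows run from 250 bases before to 50 bases after a RefSeq gene start (GRCm38.p6, the assembly of mm10) and are read on the gene's strand. That of Sox14 is chr9:99876121-99876420 (minus strand), that of Sox2 chr3:34649745-34650044 (plus strand) and that of Sox6 chr7:116038695-116038994 (minus strand). The Sox7 stretch is chr14:63943998-63944297 (plus strand), the intronic 300 bases of that peak with the most CpGs, away from exons and gene starts. The Sox6 window is the first of 6 that RefSeq gives for this gene.
Sox14: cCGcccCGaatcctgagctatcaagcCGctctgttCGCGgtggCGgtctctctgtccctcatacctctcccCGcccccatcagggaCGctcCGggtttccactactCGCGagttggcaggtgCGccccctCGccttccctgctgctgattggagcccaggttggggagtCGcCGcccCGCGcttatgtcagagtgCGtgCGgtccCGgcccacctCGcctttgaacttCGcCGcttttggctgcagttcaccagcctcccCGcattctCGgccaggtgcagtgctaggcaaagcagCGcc
Sox2: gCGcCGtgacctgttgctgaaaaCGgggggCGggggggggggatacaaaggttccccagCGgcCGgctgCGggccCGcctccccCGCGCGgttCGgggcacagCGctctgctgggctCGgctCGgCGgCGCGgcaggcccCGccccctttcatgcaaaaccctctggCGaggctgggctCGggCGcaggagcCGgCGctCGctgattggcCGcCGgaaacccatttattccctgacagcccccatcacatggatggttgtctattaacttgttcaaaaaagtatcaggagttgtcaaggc
Sox6: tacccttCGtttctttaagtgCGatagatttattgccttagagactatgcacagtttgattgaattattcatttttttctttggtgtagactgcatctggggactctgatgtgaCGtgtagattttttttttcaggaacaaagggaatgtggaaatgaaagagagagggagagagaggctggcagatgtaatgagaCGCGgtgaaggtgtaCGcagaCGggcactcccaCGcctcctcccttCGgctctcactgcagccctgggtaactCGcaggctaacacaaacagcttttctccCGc
Sox7: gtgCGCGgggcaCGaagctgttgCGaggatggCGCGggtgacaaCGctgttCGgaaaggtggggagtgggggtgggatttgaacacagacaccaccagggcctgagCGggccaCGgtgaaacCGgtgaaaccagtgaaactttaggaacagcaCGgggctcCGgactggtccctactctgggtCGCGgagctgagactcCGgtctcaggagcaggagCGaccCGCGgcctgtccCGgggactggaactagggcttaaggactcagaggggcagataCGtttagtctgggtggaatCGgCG

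The promoter windows of Sox14, Sox2 and Sox6 held 26, 27 and 11 CpGs. The median over all 32851 promoter windows of RefSeq was 7, and 26.5% of them held at least 20. The Sox7 stretch held 23, but it was picked for having the most CpGs, so the windows are no background for it. Stretches picked in the same way from the strongest Sox17 and Sox18 peaks held 9 each. All these stretches leave out exons and gene starts, so they do not rank the peaks. Over the whole peak, the strongest Sox18, Sox17 and Sox7 peaks held 74.1, 60.6 and 47.1 CpGs per kb. The Sox14 window lay wholly inside a peak, while the nearest peak to the Sox2 window was 8647 bp away. RefSeq windows were matched for 7 of the 10 genes. Those of Sox1, Sox11 and Sox21 held 37, 21 and 22 CpGs, and none of the 3 overlapped a peak, although a Sox21 peak ended 345 bp from the window.

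Over all members, the peaks of at least 2 kb and those with a strength of at least 5 all lay at Sox14 and the SoxF genes. The group differences went in both directions. Strength is not scaled to peak width. Per kb of listed peak, Sox7 in the control (15.9 reads) was below Sox6 (24.4), Sox21 (20.6) and Sox1 (20.1). In the knockdown Sox7 (27.8) was above these genes. Of the 37 peaks, 22 were lower and 15 higher in the knockdown (1 of the lower ones, at Sox18, by only -0.0036), with a median difference of -0.25 against -0.02 over all listed peaks. By a difference beyond 1 in size, 9 member peaks (24.3%) were lower, against 20.6% of all listed peaks, and 5 (13.5%) were higher, against 20.4%. Both shares were near the background of the table. Of the 13 member peaks whose strength was at least 4, 2 (15.4%) were lower, against 9.12% of the 3344 listed peaks of that strength, and 1 (7.69%) was higher, against 5.02%. Members held 5 peaks of at least 2 kb (13.5%, against 2.93% of all peaks) and 6 with a strength of at least 5 (16.2% against 5.75%).

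Sox14, a SoxB2 repressor made in restricted groups of neurons of the midbrain, thalamus and spinal cord, held the member peak with the most reads. Its rank in strength goes with its width. Per kb this peak held 28.7 reads in the control and 30.7 in the knockdown. The strongest Sox17 peak held 49.5 and 37.2. A single peak of 10387 bp (chr9:99867098-99877484) covered the whole gene, its start, coding sequence and UTRs included, and ran on beyond its end. It ranked 11th in strength and 8th in width among all 23668 peaks. The authors' mean was 8.22 for the control and 8.32 for the knockdown, or 298 and 319 reads. The difference of 0.09 lay inside the 5th to 95th percentiles (-0.55 to 0.29) of the 122 peaks with a strength of 7 or more.

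Upstream of the Sox14 start lay 3 narrower peaks whose differences did not share a direction. The peak at chr9:99877634-99878163 was at 4.36 in the control and 2.72 in the knockdown, a difference of -1.64. Its neighbor at chr9:99878247-99878599 was at 2.97 and 3.79, a difference of 0.82. The outermost, chr9:99878640-99879640, was at 4.88 and 4.09, a difference of -0.79. All 3 lay inside the 5th to 95th percentiles of peaks of their strength. Summed over the 4 Sox14 peaks, the control came to 356 reads and the knockdown to 356, or 99.9% of the control.

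**Figure D1:**
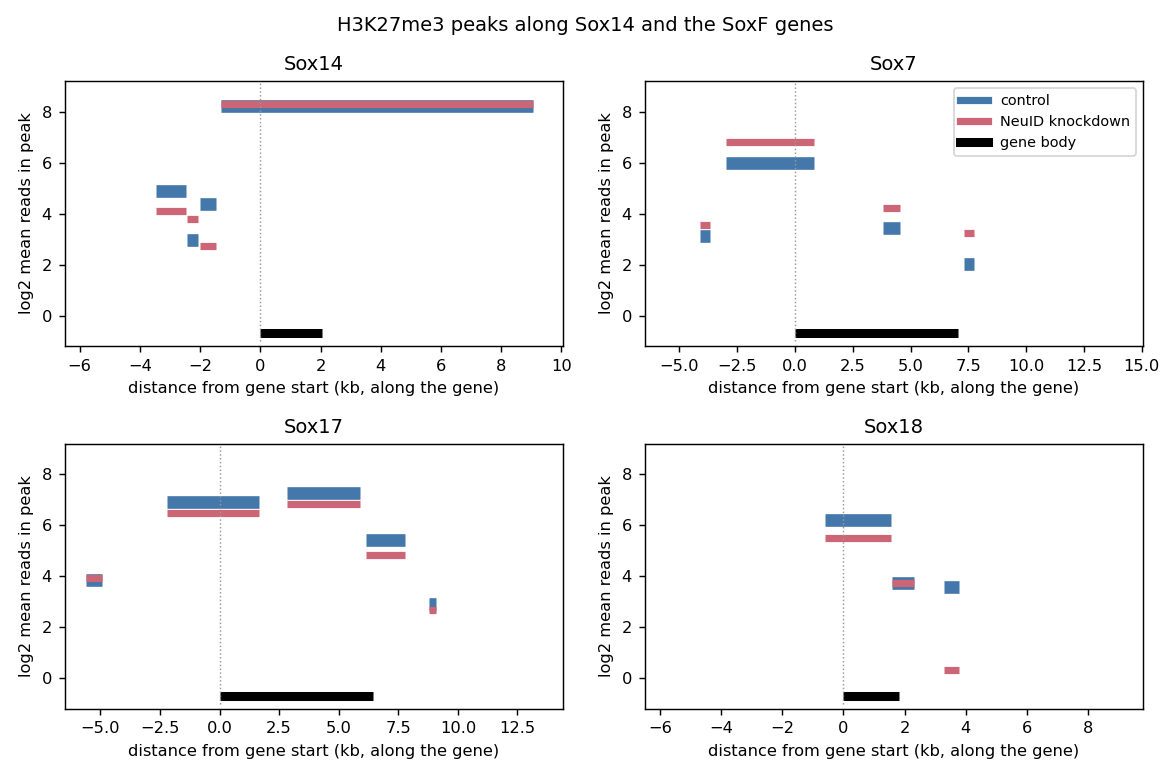
H3K27me3 peaks of Sox14, Sox7, Sox17 and Sox18 by distance from the gene start (x axis, kb, along the gene) and log2 mean of normalized reads in the peak (y axis); blue bars are the control and red bars the knockdown group mean, black bars the gene body. The 10387 bp peak of Sox14 has nearly equal means (8.22 and 8.32), the start peak of Sox7 is higher in the knockdown, and the wide peaks of Sox17 and Sox18 are lower. The value is at a bar's middle height; bar thickness has no meaning, and where the means are close the red bar lies on the blue one.

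The other neural genes had weaker peaks or no listed peak. Sox2, the SoxB1 gene that keeps progenitors proliferating, had 0 peaks in its window, and the nearest listed peak lay 9307 bp from the gene start (chr3:34640768-34641098). The table lists called peaks only, so this shows that no peak was called there, not that the mark was absent. Sox11 had 1 weak peak (chr12:27330502-27330892), 3372 bp beyond the gene's end. It was at 2.04 in the control and 3.34 in the knockdown, which is 4.10 and 10.2 reads. Of the 12845 peaks with a strength below 3, 2755 had a difference as high, this one included.

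Sox1, the other SoxB1 gene, had 5 peaks, all in the flanks and all overlapping the noncoding gene Sox1ot, and 0% of the Sox1 body was covered. Upstream, chr8:12390091-12390954 was at 4.40 in the control and 3.31 in the knockdown. The next peak, chr8:12391673-12392123, was at 3.12 and 2.29. The third, chr8:12392671-12393158, went the other way, from 1.41 in the control to 3.41 in the knockdown.
Downstream of Sox1, chr8:12400865-12401400 was at 4.04 in the control against 4.42 in the knockdown, and chr8:12404910-12405247 at 2.23 and 3.16. Thus 2 Sox1 peaks were lower and 3 higher in the knockdown, and the sums were nearly equal at 53.7 and 55.7 reads. None of the 5 lay outside the 5th to 95th percentiles of peaks of its strength.

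Sox21, a SoxB2 gene that promotes neuronal differentiation, had 5 peaks that covered 51.1% of its body. The strongest, chr14:118235306-118236636, lay over coding sequence and UTR, 394 bp from the gene start. It was at 5.00 in the control and 4.49 in the knockdown, a difference of -0.50. The peak beside it in the gene, chr14:118234410-118235021, was at 3.92 and 4.19.
The flanking peaks of Sox21 varied more. Upstream of the gene and inside the long noncoding gene Gm4675, chr14:118239777-118240700 was at 3.05 in the control and 5.02 in the knockdown, or 8.27 and 32.4 reads. Its difference of 1.97 was above the 95th percentile of 1.21, and 18 of the 1982 peaks with a strength from 4 to below 5, this one included, had one as high. Downstream, chr14:118228300-118228550 was at 3.13 in the control against 0.42 in the knockdown, and chr14:118230810-118231412 was at 3.63 and 3.27.

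The SoxD genes are long and encode Sox proteins without a transactivation domain. Sox5 and Sox6 act in cartilage, in the migration of cortical neurons and in the lineage of oligodendrocytes. Their peaks were sparse: Sox5 had 4 peaks over a window of 964 kb (4.15 per Mb) and Sox6 had 6 over 578 kb (10.4 per Mb). The SoxF genes had 234 to 304 per Mb, Sox1, Sox14 and Sox21 332 to 362, Sox11 54.6 and Sox2 0. These values depend on window length: the SoxF windows were 11.8 to 17.1 kb, so a few peaks give a high density. The strongest SoxD peak had a strength of 4.03.

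Each of the 6 Sox6 peaks was lower in the knockdown, 4 of them by more than 1, against 20.6% of all listed peaks. The strongest was chr7:116033818-116034554, over a noncoding exon 4242 bp inside the gene. It was at 4.57 in the control and 2.89 in the knockdown, or 23.8 and 7.42 reads. Its difference of -1.68 was below the 5th percentile of -1.53, and 73 of the 1982 peaks of similar strength had one as low.
The widely spaced peaks farther along Sox6 were weak. Over the UTR at the gene's end, chr7:115470355-115470893 was at 3.24 in the control and 1.76 in the knockdown. The intronic peaks chr7:115674154-115674538 and chr7:115684776-115685051 were at 2.83 and 3.09 in the control and at 1.52 and 1.86 in the knockdown. All 3 were lower in the knockdown by more than 1, as were 23.4% of all listed peaks with a strength below 3. Their differences lay inside the 5th to 95th percentiles of those peaks.
The peak at the start and UTR, chr7:116038655-116038881, overlapped 187 of the 300 bases of the promoter window printed above and was at 2.73 in the control and 2.63 in the knockdown. The intronic peak chr7:116029652-116030187 was at 3.37 and 3.21. Summed over its 6 peaks, Sox6 came to 65.9 reads in the control and 32.8 in the knockdown, or 49.8% of the control. With 8 reads added to each mean, its median difference went from -1.27 to -0.49.

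The Sox5 peaks went in both directions. An intronic peak (chr6:144533867-144534352) was listed at 0 in the control, which is at most 1 read, and at 4.14 in the knockdown, or 17.7 reads. Over the whole table, 6.64% of the peaks had a group listed at 0. Without this peak, the Sox5 sum was 22.7 reads in the control and 18.2 in the knockdown. The exonic peaks chr6:143907466-143907786 and chr6:144204074-144204435 were at 2.42 and 3.21 in the control and at 1.33 and 2.61 in the knockdown. The remaining intronic peak, chr6:144553117-144553618, was at 3.02 and 3.26.

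**Figure D2:**
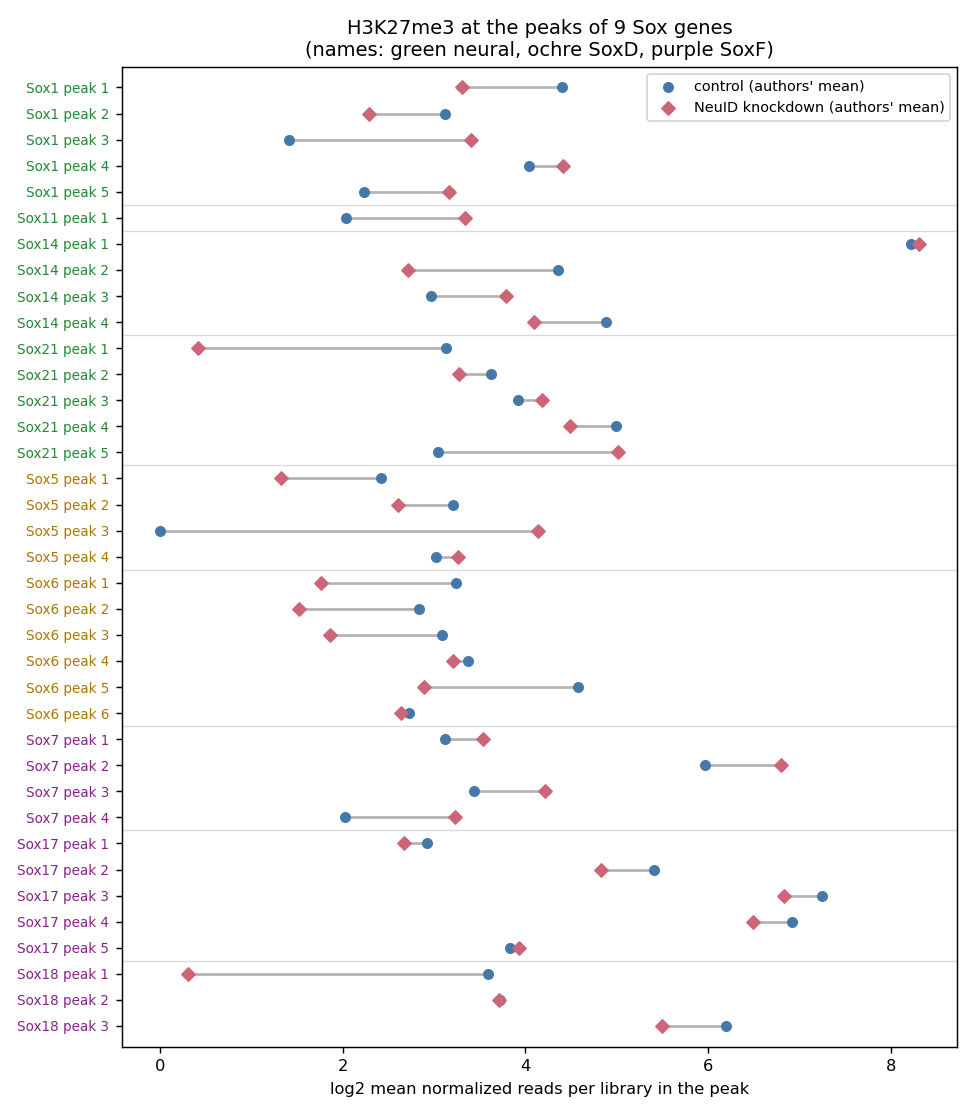
Control (blue circles) and NeuID knockdown (red diamonds) group means of all 37 member peaks, in log2 mean normalized reads per library (x axis), by gene and numbered along the chromosome (y axis). The 6 Sox6 peaks are all lower and the 4 Sox7 peaks all higher in the knockdown, while the other genes with more than 1 peak are mixed, except Sox18, whose second peak differs by less than 0.01.

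All 3 SoxF genes held a peak over the gene start. These genes act together in the differentiation of endothelium, and Sox17 is also a regulator of definitive endoderm. Their 12 peaks included 4 of at least 2 kb and 5 with a strength of at least 5. The differences did not share a direction: the Sox7 peaks were higher in the knockdown, while most Sox17 and Sox18 peaks were lower.

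At Sox7, the peak of 3798 bp at chr14:63940691-63944488 covered the gene start, coding sequence and the upstream region. It was at 5.96 in the control and 6.80 in the knockdown, or 62.5 and 111 reads. The difference of 0.83 was above the 95th percentile of 0.44 among the 404 peaks with a strength from 6 to below 7, and 4 of these peaks, this one included, had a difference as high.
The weaker Sox7 peaks were higher as well. The upstream peak chr14:63939559-63939992 was at 3.12 in the control and 3.54 in the knockdown. The peak over coding sequence, chr14:63947479-63948209, was at 3.43 and 4.21. The peak beyond the gene's end, chr14:63950969-63951431, was at 2.03 and 3.23. Summed over the 4 peaks, Sox7 came to 86.0 reads in the control and 151 in the knockdown, or 175% of the control.

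Sox17 had 5 peaks that covered 77.8% of its body. The strongest, chr1:4491474-4494544, lay over coding sequence and UTR and was at 7.25 in the control and 6.84 in the knockdown, or 152 and 114 reads. The peak over the gene start, chr1:4495700-4499549, which also overlaps the noncoding gene Gm37587, was at 6.92 and 6.49, or 121 and 89.8 reads. The peak over the UTR at the gene's end, chr1:4489561-4491204, was at 5.41 and 4.83. These 3 differences, -0.41, -0.43 and -0.58, were close to each other.
None of them was outside the 5th to 95th percentiles of peaks of its strength. In the flanks, chr1:4488275-4488560 was at 2.92 in the control against 2.67 in the knockdown, and chr1:4502286-4502952 at 3.83 and 3.93. The Sox17 sum was 337 reads in the control and 254 in the knockdown, or 75.4% of the control.

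Sox18 was covered over 98.6% of its body. The peak over its start and coding sequence, chr2:181670077-181672248, was at 6.20 in the control and 5.50 in the knockdown, or 73.6 and 45.3 reads. Its difference of -0.70 was inside the 5th to 95th percentiles (-0.95 to 0.76) of the 836 peaks with a strength from 5 to below 6. The peak beside it over the UTR, chr2:181669340-181670050, was at 3.72 in both groups.
Beyond the gene's end, the 486 bp peak chr2:181667854-181668339 was at 3.59 in the control and 0.31 in the knockdown, or 12.1 and 1.24 reads. That difference of -3.28 was below the 5th percentile of -2.97 for peaks with a strength below 3, and 346 of these 12845 peaks had one as low. The Sox18 sum was 98.9 reads in the control and 59.7 in the knockdown, or 60.4% of the control.

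**Figure D3:**
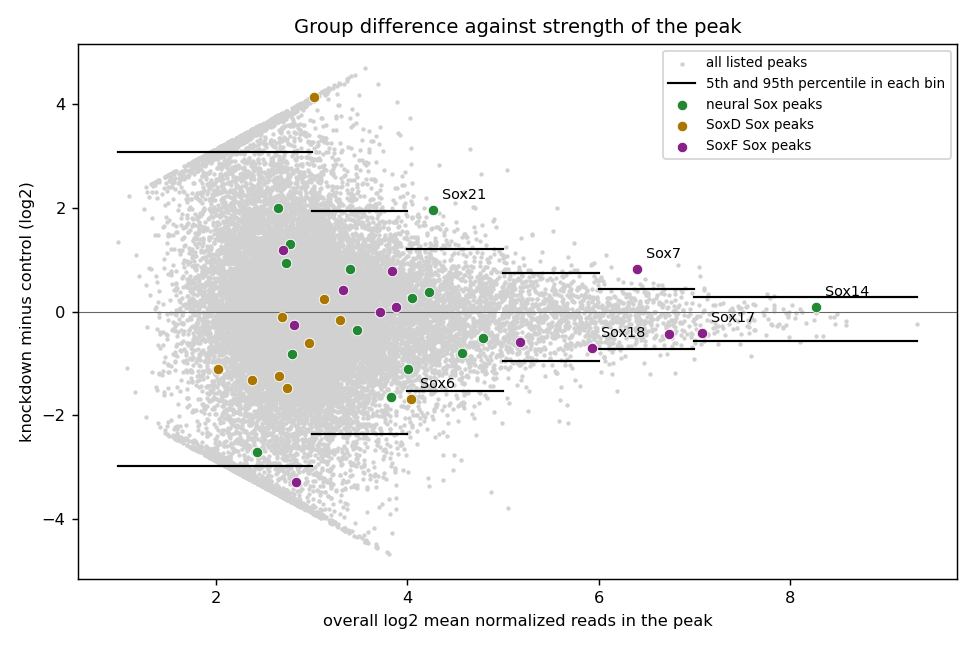
Knockdown minus control difference of group means (y axis, log2) against the overall log2 mean of normalized reads (x axis) for all 23668 listed peaks (gray) and the neural (green), SoxD (ochre) and SoxF (purple) Sox peaks; black lines are the 5th and 95th percentiles in 6 bins of strength. The spread narrows with strength, and among the 6 Sox peaks with a strength of at least 5 the Sox7 start peak alone lies outside the lines.

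Neural and SoxF genes were then compared as groups, by description only, since genes are not replicates of a condition. The 15 neural peaks had a median strength of 3.83 and the 12 SoxF peaks one of 3.86. The median peak was 536 bp wide in the neural and 721 bp in the SoxF genes. Per length of listed peak, the level was 25.7 reads per kb in the neural and 28.5 in the SoxF genes in the control, and 26.6 and 25.4 in the knockdown. Without Sox14 the neural level in the control was 19.8 reads per kb.

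In the knockdown, the summed reads were 103% of the control over the neural peaks and 89.0% over the SoxF peaks, against 97.1% over all listed peaks. The normalization was not stated, so these ratios are relative to it. Of the 15 neural peaks 7 were lower and 8 higher, with 3 beyond 1 in each direction. Of the 12 SoxF peaks 7 were lower and 5 higher, with 1 beyond 1 in each direction. Over all listed peaks, 20.6% were lower and 20.4% higher by more than 1. The neural counts were thus near the background of the table, and the SoxF counts below it. However, 5 of the SoxF peaks had a strength of at least 5, where differences beyond 1 are rarer, so this background does not match them. The median difference was 0.09 for neural and -0.13 for SoxF peaks.
The SoxF values rested on single genes. Leaving out Sox17 turned the summed share to 114% and the median difference to 0.42, and leaving out Sox7 gave 72.0% and -0.42. The separation of the medians, 0.22 higher in the neural genes, turned to -0.20 with windows of 5 kb around the gene start and to -0.15 with peaks of at least 500 bp. The sign of the separation between the neural and SoxF groups thus changed with the window, the width filter and the genes included.

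By gene, the order of levels per kb of listed peak in the control was Sox17 (35.4), Sox18 (29.3), Sox14 (29.0), Sox6 (24.4), Sox21 (20.6), Sox1 (20.1), Sox7 (15.9), Sox5 (14.2) and Sox11 (10.5). In the knockdown Sox14 was first at 29.0, followed by Sox7 (27.8), Sox17 (26.7), Sox11, Sox21 (22.6), Sox5 (21.5), Sox1 (20.8), Sox18 (17.7) and Sox6 (12.1). The Sox11 place in both orders rests on 1 weak peak. The Sox5 place in the knockdown order rests on the peak listed at 0 in the control. Without that peak, Sox5 was at 19.2 reads per kb in the control and 15.4 in the knockdown. Without values per library, it cannot be said which neighbors in either order differ beyond their spread.

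**Figure D4:**
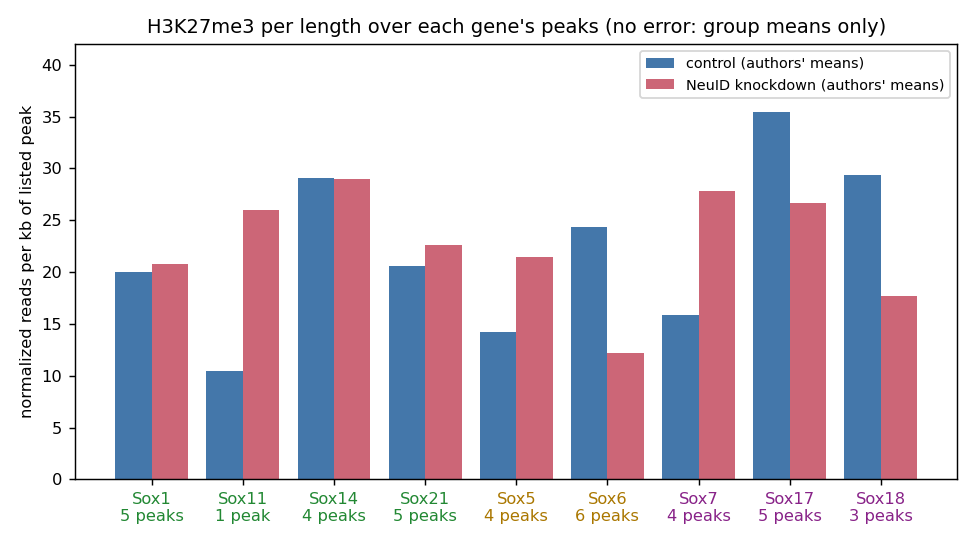
Summed normalized reads per kb of listed peak (y axis) in the control (blue) and the NeuID knockdown (red) for the 9 Sox genes with a peak, with the number of peaks under each name. Sox7, Sox11 and Sox5 are higher in the knockdown, Sox6, Sox18 and Sox17 lower, and Sox14 is level at 29.0. Sox11 has 1 weak peak, and Sox5 is higher through its peak listed at 0 in the control. There are no error bars because the values are group means.

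CpG content, which the choice of genes did not use, varied among the wide peaks. The ratio of observed to expected CpGs was 0.59 in the Sox14 gene peak, 0.58 in the Sox7 start peak, 0.75 in the strongest Sox17 peak, 0.46 in the Sox17 start peak and 0.77 in the Sox18 start peak. The median was 0.22 over 23642 listed peaks on the chromosomes and 0.53 over the 693 peaks of at least 2 kb. All 5 wide member peaks were above the first of these medians, and the Sox17 start peak was below the second. A ratio above 0.6 was found in 2 of the 5 (40.0%), against 32.5% of all peaks of at least 2 kb. The 32 member peaks under 2 kb had a median of 0.23. Of these, 5 (15.6%) were above 0.6: both Sox21 gene peaks (0.91 and 0.82), the strongest Sox6 peak (0.71) and the 2 outer upstream Sox1 peaks (0.64 and 0.60). Over all peaks on the chromosomes the share was 8.56%, but that set also holds the peaks of at least 2 kb. Of the wide peaks above 0.6, both, at Sox17 and Sox18, were lower in the knockdown, while the Sox7 peak at 0.58 was higher. The Sox17 start peak, with the lowest ratio of the 5, was lower as well (-0.43), and the Sox14 peak at 0.59 was nearly level (0.09). A link between the ratio and the direction was not tested in these 5 peaks.

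The 10 other genes of the family held fewer peaks. Peaks were listed at 4 of them, 8 in all: 1 at Sox3, 3 at Sox10, 1 at Sox13 and 3 at Sox30. Of these 8 peaks, 4 were higher by more than 1, against 20.4% of all listed peaks, and 0 were lower by more than 1, against 20.6%, and their median difference was 0.81. Sox10, the regulator of oligodendrocytes and neural crest, had the strongest of them at 5.50; it is also among the oligodendrocyte markers above.

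Lists of genes of the same lineages gave context. Of 10 neural progenitor genes 3 had a peak, as had 8 of 12 endothelial and 9 of 10 endoderm genes, against 28.0% of 21951 protein-coding genes. The 56 endoderm peaks, strongest at Foxa2 (7.62) and Gata6 (7.60), had a median strength of 4.45 and a median difference of -0.30, with 8 lower (14.3%) and 3 higher (5.36%) by more than 1. The 32 endothelial peaks had a median difference of 0.10, with 5 lower (15.6%) and 6 higher (18.8%). Over all listed peaks, the shares were 20.6% lower and 20.4% higher, and these 4 shares lay below them. The endoderm peaks were stronger, however, and differences beyond 1 grew rarer with strength. Among all listed peaks with a strength of at least 4, 9.12% were lower and 5.02% higher, and the endoderm shares were not below these. The endoderm list also held weaker peaks, so neither background matches its strength. The 6 neural progenitor peaks had a median of -0.51, with 3 lower and 2 higher, which are too few to read against either background.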

How the data were processed

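Groups were taken from the sample titles. Per the labels and the study's methods, the authors aligned single-end reads with Bowtie2 (mm10), ran MACS2 in its broad mode and used DiffBind, with its DESeq2 option, to compare groups. The deposited values are log2 means of normalized reads per peak, pooled by the authors over all libraries or over 1 group; normalization, input subtraction, duplicate removal and versions are not given in the sources used here. The table also holds the authors' own comparison (fold change, p-value and FDR), which was not used. The number of unused per-sample columns was 0. Library totals were not used here, so depth is unknown.

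Peaks were assigned to the 10 genes of GENCODE M21 with 5 kb flanks and at least 1 base of overlap. All 23642 peaks on chromosomes lay inside the GRCm38.p6 reference, and no peak was counted in more than 1 member. A difference is the knockdown minus the control log2 mean, and one beyond 1 was counted as lower or higher; a group listed at 0 entered sums as 1 read. No test was run. The members and lists were chosen with earlier results of these data known. Named were all members, and in each the strongest, widest and start-covering peaks, those beyond 1 and those listed at 0; the remaining peaks were added for completeness. The observed to expected CpG ratio is the CpG number times the length over the product of C and G numbers. Scripts were checked on simulated peaks. Python 3.11.15, numpy 2.4.6, pandas 2.3.3, matplotlib 3.10.9 and pysam 0.24.0 were used.

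Alternatives were other windows and overlaps, filters on strength, width and groups at 0, other limits, centring, a pseudocount of 8 reads and medians over genes; leaving out single genes was chosen after seeing the data.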

Additional observations from a re-analysis of the deposited data

How the results depend on the processing

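No paired analysis was possible because the deposited values are group means; for the same reason fits without each replicate could not be run. Moved means a shift of over 0.1 on the log2 scale, or of over 1.5 times for counts. The causes were not tested, except that smaller windows and stricter filters or limits hold fewer peaks.

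The gene body alone left 20 peaks and 5 kb around the gene start left 21. The number lower by over 1 then went from 9 to 5 and 4, and the number higher from 5 to 1 and 2. It became 2 lower and 1 higher with an overall mean of at least 4, 4 and 1 with a width of at least 500 bp, 2 and 2 with a pseudocount of 8 reads, 2 and 1 with a limit of 2, and 15 and 9 with a limit of 0.5. The median over all members was -0.42 with the gene body alone, -0.0925 around the gene start, -0.43 with an overall mean of at least 4, -0.36 with a width of at least 500 bp and -0.12 with the pseudocount. It was -0.41 without Sox7 and -0.12 without Sox17.

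The neural median was -0.21 around the gene start, -0.36 with a width of at least 500 bp and 0.26 without Sox14. The SoxF median was -0.41 with the gene body alone, -0.0036 around the gene start, -0.25 with 50% of the peak in the window, -0.43 with an overall mean of at least 4, -0.41 as a median over genes, -0.42 without Sox7 and 0.42 without Sox17. The neural minus SoxF difference was 0.51, -0.20, 0.35, 0.52, 0.42, 0.51 and -0.33 under these settings in the same order, -0.15 with a width of at least 500 bp and 0.39 without Sox14. The summed share was 112% without Sox14 for neural peaks, and 72.0% without Sox7 and 114% without Sox17 for SoxF peaks.

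Among single genes, the median of Sox1 (0.37) turned to -0.24 with 10 kb flanks, -0.82 around the gene start and -0.36 with either filter on strength or width. That of Sox14 (-0.35) turned to 0.10 with 10 kb flanks and to 0.09 with the gene body alone, which leaves 1 peak, that of Sox21 (-0.36) to 0.26 around the gene start and with an overall mean of at least 4, and that of Sox5 (-0.18) to 0.24 with 10 kb flanks and with a width of at least 500 bp. The medians of Sox6, Sox7, Sox17 and Sox18 did not change sign under the 9 alternatives tried on single genes, where they gave a value. Centring on the median of all peaks, -0.02, changed no direction of the medians given here. Depth is unknown, so its limit on these values could not be stated.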
